A study of Mus musculus with 30 samples.

Results

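The genes described here encode the AMPA-type glutamate receptor: its pore-forming subunits Gria1, Gria2, Gria3 and Gria4, and 6 auxiliary proteins, namely the TARPs Cacng2, Cacng3 and Cacng8, the cornichons Cnih2 and Cnih3, and Gsg1l. They were chosen by symbol, with earlier results of these data known. Each of these 10 symbols has 1 row among the 24883 rows of the expression table, and all 10 averaged at least 1 FPKM, the level required to enter the tests. FPKM scales a gene's fragment count to transcript length and to library size, so levels can be set side by side between genes and mice, within limits. The genes differ in longest transcript and GC content: Cnih2 has 1343 bases at 62.3% GC, and Gria2 10371 bases at 36.8%. The libraries differ in tissue makeup. The part of these differences in the order of the genes was not tested.

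RNA was sequenced from the dorsal hippocampus of 30 male C57BL/6J wild-type mice, 6 in each of 5 conditions, with 1 library for each mouse. All mice were single-housed young adults that received a bilateral infusion of the in vivo-jetPEI transfection reagent into the dorsal hippocampus. For trained mice the labels place it 3 days before training, while the study's surgery methods state a longer interval before behaviour testing. For VEH-HC mice the labels give no interval. VEH-HC mice received reagent without DNA and stayed in the home cage, where by the study's methods they were only handled. Trained mice were also habituated to the training chamber beforehand. Comparisons with VEH-HC therefore do not separate habituation from the training session. VEH-T10 mice received the same vehicle and a 10 min (threshold) training session of the object location memory (OLM) task, and VEH-T3 mice the vehicle and a 3 min (subthreshold) session. Y397F-T10 and Y397D-T3 mice received, before a 10 min and a 3 min session respectively, a plasmid for HA-tagged mouse CREST. In it tyrosine 397 was replaced by phenylalanine (phospho-null in the labels) or aspartic acid (phospho-mimetic in the labels). A short CaMK2 promoter that favours excitatory neurons drove the plasmid. The study could not detect phosphorylation of tyrosine 397 and calls both forms point mutants. CREST, the product of Ss18l1, is a calcium-responsive transcriptional coactivator that binds CBP. Tissue was taken 1 h after training. The labels give no share of transfected cells, and the dissected tissue holds all cell types of the region.

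AMPA receptors carry most of the fast excitatory current at hippocampal synapses, and changes in their number and makeup are a central mechanism of long-term potentiation. Each receptor is a tetramer of GluA subunits, most often GluA1 with GluA2 or GluA2 with GluA3 in CA1 pyramidal neurons, whereas GluA4 is found mainly in interneurons of the adult hippocampus. TARPs bring receptors to the surface, tie them to PSD-95 and slow their closing. Cornichons help receptors leave the endoplasmic reticulum and prolong their currents, and GSG1L is known to weaken them.

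The 4 subunits share a pore loop whose tip holds the Q/R site, where editing of the Gria2 RNA by the enzyme ADAR2 (gene Adarb1) turns the glutamine codon into 1 read as arginine and makes receptors with GluA2 nearly impermeable to calcium. The site is shown because it is what sets Gria2, the subunit that rose in these data, apart in function from the others. The reference sequences come from GENCODE transcripts of GRCm38 (mm10), 27 bases 5′ to 3′ on the coding strand with the Q/R codon in capitals.
Gria1: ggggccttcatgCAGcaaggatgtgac
Gria2: ggtgcctttatgCAGcaaggatgcgat
Gria3: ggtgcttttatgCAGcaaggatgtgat
Gria4: ggtgcctttatgCAAcaaggatgtgac
The codon lies in exon 11 of 16 of Gria1 (chr11:57243094-57243096, plus strand), exon 11 of 16 of Gria2 (chr3:80706911-80706913, minus strand), exon 11 of 16 of Gria3 (chrX:41610265-41610267, plus strand) and exon 12 of 17 of Gria4 (chr9:4464137-4464139, minus strand). The Gria1, Gria3 and Gria4 windows match that of Gria2 at 23, 25 and 24 of the 27 bases. All 4 genes encode glutamine here in the genome, and FPKM does not show how much of the Gria2 RNA was edited.

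Several libraries stood apart before any comparison. Replicate 1 of VEH-T10, of Y397F-T10 and of VEH-T3 held the highest summed FPKM of 4 pan-neuronal markers (1590 to 1630, against 1200 to 1580 in the other 27 libraries). They held the lowest of 4 astrocyte markers (248 to 281, against 354 to 1410) and of 4 oligodendrocyte markers (1060 to 1190, against 1340 to 3500). The same held for 4 microglia markers (58.2 to 66.3, against 76.3 to 168) and 3 endothelial markers (42.6 to 44.7, against 45.9 to 80.2). Deviations of these libraries from their condition means correlated with each other at r = 0.41 to 0.84 across genes. Counts of changed genes are therefore also given without replicate 1 of all 5 conditions, a step chosen after the data had been seen. VEH-HC mouse 4 differed from the other VEH-HC mice in several genes named here (Gria2 at 74.8 FPKM, Gria4 at 9.78 and Cnih2 at 612.1), and results that turn on it are also given without it. The 6 choroid plexus markers, from tissue next to the hippocampus, summed to 918 to 5610 FPKM in VEH-HC (median 3150) and to 10.4 to 12800 in trained mice, with medians of 1960 in VEH-T3, 125 in Y397D-T3, 55.9 in Y397F-T10 and 102 in VEH-T10. All 6 averaged lower in log2(FPKM + 1) than VEH-HC in each trained condition. The CA1 pyramidal markers (Wfs1, Fibcd1, Pou3f1 and Mpped1) were present in every library, at 143 to 220 FPKM in sum. Ss18l1 ranged from 11.4 to 13.3 FPKM in VEH-HC and from 11.4 to 14.0 in Y397F-T10 and 12.9 to 14.0 in Y397D-T3, and it was called in none of the 7 comparisons (adjusted p from 0.163 to 1), so it gives no check of which mice carried a plasmid. In bulk tissue, fewer cells of a type and less RNA per cell cannot be told apart.

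In level, the cornichon Cnih2 stood far above the rest, at a mean of 554.7 FPKM over the 30 mice. Gria1 followed at 177.9, Cacng8 at 145.7 and Gria2 at 97.3. Each of these neighbours kept its place in 30 of 30 mice. Gria3 (35.8) and Cacng3 (29.2) were next and changed places in 2 mice, both of VEH-HC, and Cacng3 exceeded Cnih3 (25.0) in 27 mice. Cnih3 exceeded Cacng2 (12.6) in 30 of 30. Cacng2 and Gria4 (11.3) could not be ranked: Cacng2 was higher in 22 mice but in only 2 of the 6 VEH-HC mice. Gsg1l was lowest at 6.97 FPKM. Across all mice, Gria1 varied least, with a coefficient of variation of 6.81%, and Gsg1l most, at 27.3%.

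**Figure D1:**
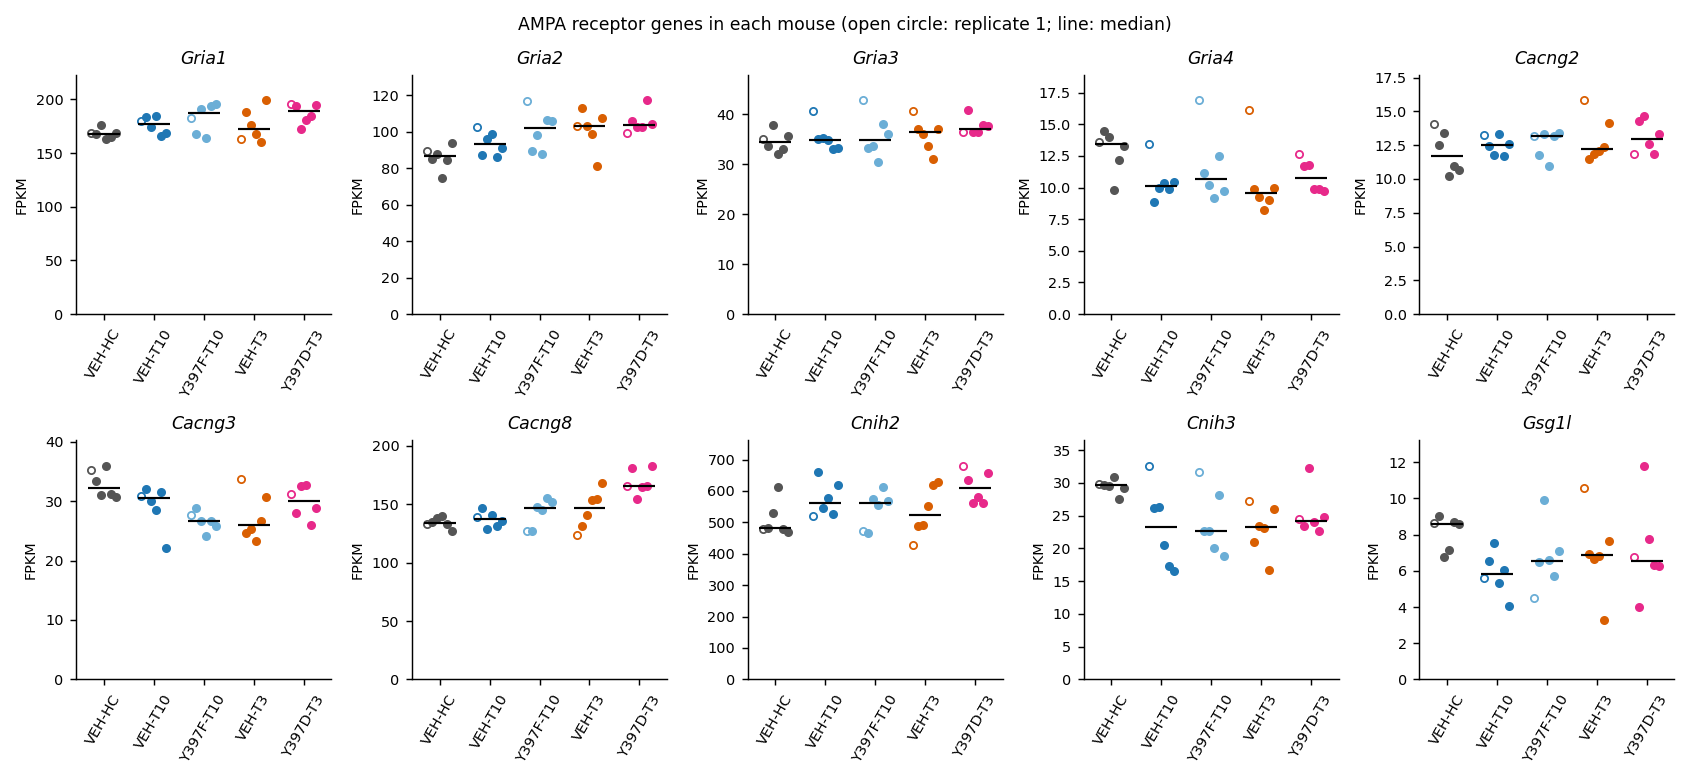
FPKM (vertical axes, from 0) of the 10 AMPA receptor genes in each of the 6 mice of the 5 conditions. A point is a mouse, an open circle is replicate 1 and the line is the median. The Y397D-T3 mice lie above all VEH-HC mice for Gria2 (99.3 to 117.3 against 74.8 to 93.6) and Cacng8 (155.0 to 183.3 against 126.8 to 140.1), whereas most trained mice lie below VEH-HC for Cnih3.

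The first question was which of these genes differed 1 h after training from the home cage. A gene passed the test where its p from limma, a linear model with a shared estimate of spread, was under 0.05 after Benjamini-Hochberg adjustment over all genes tested. Gria2 and Cacng8 rose in Y397D-T3, and 0 of the 10 genes passed the test in the other trained conditions. Of all 13184 genes tested, 7.07% passed in Y397D-T3 (3.91% as higher), 5.17% in VEH-T3, 1.13% in Y397F-T10 and 0.819% in VEH-T10. The limma model gave, at an unadjusted p under 0.05, 4 of the 10 genes in each of the 4 comparisons, against 24.9% of all genes in Y397D-T3, 21.6% in VEH-T3, 16.9% in Y397F-T10 and 14.9% in VEH-T10. The 4 were all higher in Y397D-T3 (Gria1, Gria2, Cacng8 and Cnih2, where 10.3% of all genes were higher by this limit). They were all lower in VEH-T10 (Gria4, Cacng3, Cnih3 and Gsg1l, where 10.3% were lower). In VEH-T3 3 were lower (13.8% of all genes) and 1 higher (7.79%), and in Y397F-T10 2 were lower (11.4%) and 2 higher (5.5%). The same 6 VEH-HC mice serve all 4 comparisons. The median difference of the 10 genes in log2(FPKM + 1) was 0.122 in Y397D-T3, 0.0556 in VEH-T3, 0.0585 in Y397F-T10 and 0.029 in VEH-T10, against -0.0343, -0.0352, -0.0406 and -0.0255 over all genes tested. Without replicate 1 of every condition 2 of the 10 genes passed in Y397D-T3 (11.3% of all genes tested), 4 in VEH-T3 (11.6%), 2 in VEH-T10 (4.39%) and 0 in Y397F-T10 (5.95%).

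**Figure D2:**
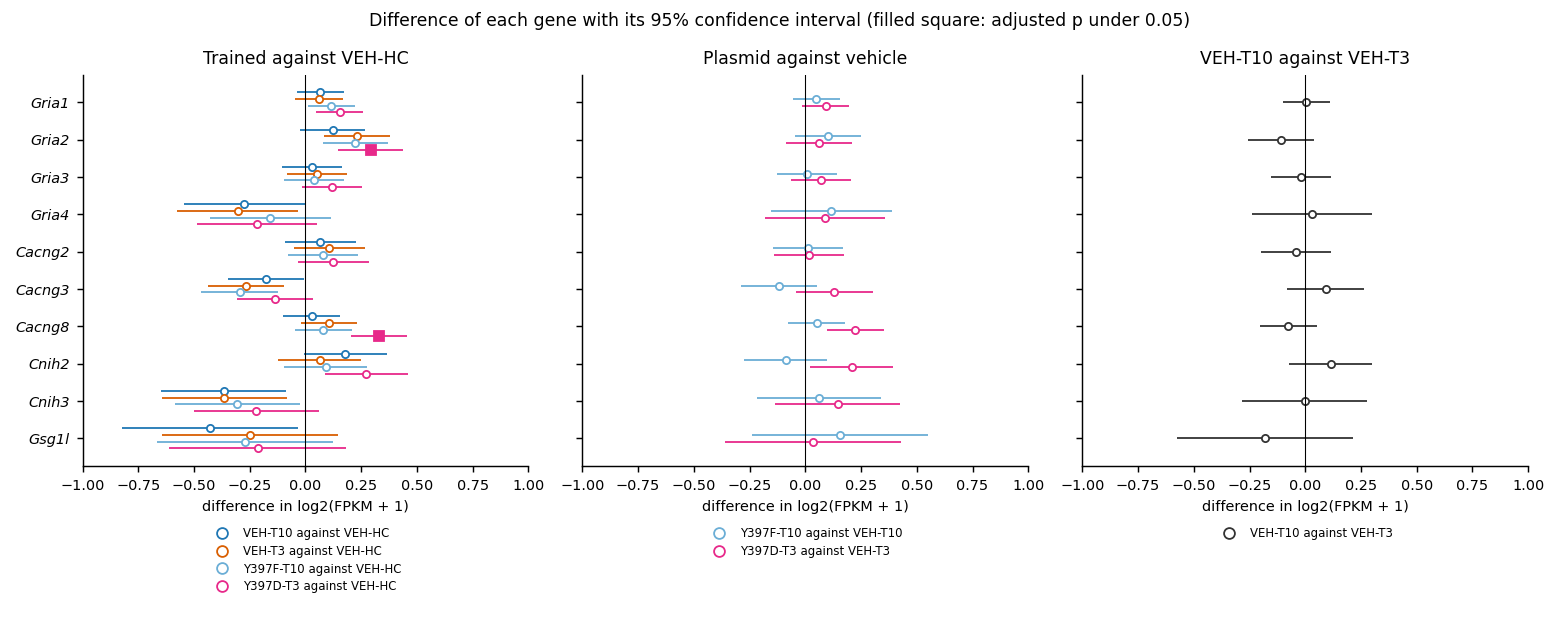
Difference of each gene in log2(FPKM + 1) with its 95% confidence interval, in the 7 comparisons: trained conditions against VEH-HC, plasmid against vehicle, and 10 min against 3 min of training. Filled squares, Gria2 (0.29) and Cacng8 (0.33) in Y397D-T3 against VEH-HC, have an adjusted p under 0.05.

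Among the pore-forming subunits, Gria2 (chromosome 3: 80681450–80802835, minus strand) showed the largest rise. VEH-HC mice ran from 74.8 through a median of 86.5 to 93.6 FPKM. The 3 min sessions gave 81.2 to 113.2 (median 103.2) with vehicle and 99.3 to 117.3 (median 103.4) with Y397D. The 10 min sessions gave 86.2 to 102.3 (median 93.5) with vehicle and 87.8 to 116.6 (median 102.0) with Y397F. All 6 Y397D-T3 mice lay above the highest VEH-HC mouse, while the other trained conditions overlapped with VEH-HC. The mice of Y397D-T3 and VEH-HC did not overlap, with Y397D-T3 higher, for 2.5% of all genes tested. The rise in Y397D-T3 was 0.29 in log2(FPKM + 1) (1.23-fold, standard error 0.0716, 95% confidence interval 0.15 to 0.44, adjusted p = 0.0145). The difference was 0.23 in VEH-T3 (adjusted p = 0.0562), 0.22 in Y397F-T10 (adjusted p = 0.108) and 0.12 in VEH-T10 (95% confidence interval -0.02 to 0.27). Part of the VEH-HC spread was mouse 4, the lowest at 74.8 FPKM. Without it the Y397D-T3 difference was 0.25 with an adjusted p of 0.0401. With the trend on length and GC content removed, the differences were 0.09 in VEH-T3, 0.11 in Y397F-T10 and 0.22 in Y397D-T3, the last still called. The VEH-T3 difference passed the threshold without VEH-HC mouse 6 (0.26, adjusted p = 0.0455) or without VEH-T3 mouse 5 (0.29, adjusted p = 0.00893).

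Gria1 (chromosome 11: 57011387–57330244, plus strand), whose subunit is inserted into synapses during potentiation, ran from 162.9 through a median of 168.0 to 175.8 FPKM in VEH-HC. With 3 min of training it ran from 160.4 to 199.3 (median 172.0) in vehicle mice and from 172.1 to 195.8 (median 189.3) in Y397D-T3. With 10 min it ran from 166.2 to 184.2 (median 177.1) in vehicle mice and from 163.7 to 195.7 (median 187.1) in Y397F-T10. In Y397D-T3, 5 of 6 mice exceeded every VEH-HC mouse. The difference of 0.15 (95% confidence interval 0.05 to 0.26) did not pass the adjustment (adjusted p = 0.0688), but did so without Y397D-T3 mouse 3 (0.18, adjusted p = 0.0444) and with only the 12 libraries compared (adjusted p = 0.0252). The other 3 conditions differed from VEH-HC by 0.06 to 0.12 (adjusted p from 0.251 to 0.591).

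Gria3 (chromosome X: 41400854–41678601, plus strand), a partner of GluA2, ranged from 32.0 to 37.7 FPKM in VEH-HC, with a median of 34.3. Medians in the trained conditions lay between 34.8 and 37.1, and all of them overlapped with VEH-HC. The largest difference was 0.12 in Y397D-T3 (95% confidence interval -0.02 to 0.25, adjusted p = 0.261). In VEH-T10 and Y397F-T10 the differences, 0.03 and 0.04, turned to -0.01 without replicate 1.

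Gria4 (chromosome 9: 4417896–4796234, minus strand) pointed the other way. In the home cage it ran from 9.78 through a median of 13.5 to 14.5 FPKM. After 3 min it ran from 8.22 to 16.2 (median 9.58) with vehicle and from 9.70 to 12.6 (median 10.8) with Y397D. After 10 min it ran from 8.88 to 13.4 (median 10.1) with vehicle and from 9.16 to 16.9 (median 10.7) with Y397F. The median was lower than in VEH-HC in every trained condition, yet every trained range overlapped with VEH-HC. VEH-HC mouse 4 was as low as most trained mice, and replicate 1 of VEH-T10 (13.4), Y397F-T10 (16.9) and VEH-T3 (16.2) stood above the 21 other trained mice (8.22 to 12.6). These are the libraries with high pan-neuronal and low astrocyte, oligodendrocyte, microglia and endothelial markers. Differences from VEH-HC were -0.30 in VEH-T3 (adjusted p = 0.17), -0.22 in Y397D-T3 (adjusted p = 0.309), -0.27 in VEH-T10 (adjusted p = 0.329) and -0.16 in Y397F-T10 (adjusted p = 0.583). Without VEH-T3 replicate 1 the VEH-T3 difference was -0.43 (adjusted p = 0.0197). Without replicate 1 of every condition Gria4 was lower at -0.41 in VEH-T3 (adjusted p = 0.00467) and -0.32 in VEH-T10 (adjusted p = 0.0376). The 6 interneuron markers (Gad1, Gad2, Slc32a1, Sst, Pvalb and Vip) were lower than VEH-HC for 6 of 6 genes in VEH-T10, VEH-T3 and Y397F-T10 and for 5 of 6 in Y397D-T3, 0 of them with an adjusted p under 0.05, and summed to 549 to 779 FPKM in VEH-HC and 495 to 930 in trained mice. In the 3 libraries that stood apart they summed to 743 to 857. The part of these markers in the Gria4 values was not tested.

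Of the TARPs, Cacng8 (chromosome 7: 3390683–3415648, plus strand), which encodes γ-8, the TARP typical of hippocampal pyramidal neurons, showed the clearest rise. Home cage mice ran from 126.8 through a median of 133.9 to 140.1 FPKM. Mice trained for 3 min ran from 123.7 to 168.5 (median 147.0) with vehicle and from 155.0 to 183.3 (median 165.8) with Y397D. Those trained for 10 min ran from 129.0 to 146.7 (median 137.7) with vehicle and from 127.3 to 155.1 (median 146.5) with Y397F. The 6 Y397D-T3 mice lay above every VEH-HC mouse, as for 2.5% of all genes tested. Against VEH-HC the rise was 0.33 (1.26-fold, standard error 0.0621, 95% confidence interval 0.20 to 0.46, adjusted p = 0.00248). It passed the test without any 1 of the 12 mice (differences of 0.31 to 0.35, highest adjusted p 0.00845) and in all 8 other settings of the analysis. The other 3 trained conditions differed from VEH-HC by 0.03 to 0.11 (adjusted p from 0.338 to 0.882), although the VEH-T3 difference was 0.24 (adjusted p = 0.0288) with the trend on length and GC content removed. In the same Y397D-T3 mice 1 of 4 pan-neuronal markers, Rbfox3, was called higher than in VEH-HC (0.29, adjusted p = 0.00383), with 3 of the 4 above 0, 1 below it at an unadjusted p under 0.05, and a median of 0.0377. Of the 4 CA1 markers 1, Pou3f1, was called higher (0.33, adjusted p = 0.0198), with 2 above and 2 below 0 and a median of 0.0272. The pan-neuronal markers together summed to 1340 to 1580 FPKM in Y397D-T3 and 1290 to 1510 in VEH-HC. The thalamic markers Slc17a6 (-0.95, adjusted p = 0.0199) and Tcf7l2 (-0.37, adjusted p = 0.0211) were lower. Slc17a6 was also called lower in VEH-T10 (-1.08, adjusted p = 0.031) and Y397F-T10 (-1.12, adjusted p = 0.0313). Median differences in Y397D-T3 were -0.149 for 4 astrocyte, -0.168 for 4 oligodendrocyte, -0.127 for 4 microglia and 0.118 for 3 endothelial markers, with 0 called. The median of all genes tested was -0.0343. The 4 dentate granule cell markers (Prox1, Dsp, C1ql2 and Lct) were all above VEH-HC in Y397D-T3, with a median difference of 0.299 and 0 called, and summed to 72.4 to 145 FPKM against 86.1 to 113. Their median difference was 0.273 in VEH-T3, 0.226 in Y397F-T10 and 0.0298 in VEH-T10. All 6 choroid plexus markers were lower in Y397D-T3, with a median of -2.67, 0 called and 5 at an unadjusted p under 0.05. The part of these markers in the Cacng8 and Gria2 rises was not tested.

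Cacng3 (chromosome 7: 122670492–122769393, plus strand), encoding γ-3, was lower in trained mice than in the home cage, without passing the test. Its range was 30.6 to 36.0 FPKM in the home cage, with a median of 32.3. For VEH-T3 it was 23.2 to 33.7 (median 26.0), and for Y397D-T3 25.9 to 32.8 (median 30.1). For VEH-T10 it was 22.1 to 32.1 (median 30.5), and for Y397F-T10 24.1 to 28.8 (median 26.6). All 6 Y397F-T10 mice lay below every VEH-HC mouse, which held for 1.24% of all genes tested, and 4 of 6 VEH-T3 mice did. The differences were -0.30 in Y397F-T10 (95% confidence interval -0.47 to -0.12, adjusted p = 0.0732) and -0.27 in VEH-T3 (95% confidence interval -0.44 to -0.10, adjusted p = 0.0578). With only the 12 libraries compared, the adjusted p in Y397F-T10 was 0.0406. Without VEH-T3 replicate 1 the VEH-T3 difference was -0.33 (adjusted p = 0.0121). With the trend on length and GC content removed it was -0.16. In VEH-T10 and Y397D-T3 the differences were -0.18 and -0.14 (adjusted p = 0.322 and 0.315), and without VEH-T10 mouse 6 that of VEH-T10 was -0.10.

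Cacng2 (chromosome 15: 77991748–78120028, minus strand), which encodes stargazin, ran from 10.2 through 11.7 to 14.0 FPKM in VEH-HC, with trained medians of 12.2 to 13.1. Differences lay between 0.07 and 0.13 and passed the test in 0 of 4 conditions (adjusted p from 0.315 to 0.74). All trained conditions overlapped with VEH-HC.

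The cornichons diverged in direction. Cnih2 (chromosome 19: 5092868–5098521, minus strand) ran from 470.1 through a median of 480.7 to 612.1 FPKM in VEH-HC. The 3 min groups spanned 427.6 to 628.0 (median 522.3) with vehicle and 562.3 to 681.0 (median 608.6) with Y397D. The 10 min groups spanned 519.7 to 660.1 (median 562.2) with vehicle and 465.1 to 613.7 (median 562.8) with Y397F. All 6 Y397D-T3 mice and all 6 VEH-T10 mice exceeded the VEH-HC median, but VEH-HC mouse 4 reached 612.1 FPKM, above 3 of the Y397D-T3 mice. In Y397D-T3 the difference was 0.27 (95% confidence interval 0.09 to 0.46, adjusted p = 0.0647). Without VEH-HC mouse 4 it was 0.33 (adjusted p = 0.0345), and it passed with libraries centred on their medians (0.31, adjusted p = 0.0392), with only the 12 libraries compared (adjusted p = 0.03) and with the trend on length and GC content removed (0.33, adjusted p = 0.00877). The other 3 conditions differed from VEH-HC by 0.06 to 0.18 (adjusted p from 0.361 to 0.752).

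Cnih3 (chromosome 1: 181352628–181460641, plus strand) ran instead from 27.5 through 29.7 to 30.8 FPKM in VEH-HC, a narrow range, and lower and more widely in trained mice. Values after 3 min spanned 16.6 to 27.3 (median 23.3) with vehicle and 22.7 to 32.4 (median 24.3) with Y397D. Values after 10 min spanned 16.6 to 32.7 (median 23.3) with vehicle and 18.9 to 31.7 (median 22.6) with Y397F. All 6 VEH-T3 mice lay below every VEH-HC mouse, which held for 1.31% of all genes tested. In each of VEH-T10, Y397F-T10 and Y397D-T3 1 mouse lay above all VEH-HC mice, replicate 1 in the first 2 and replicate 3 in Y397D-T3. Differences were -0.37 in VEH-T3 (95% confidence interval -0.65 to -0.08, adjusted p = 0.112), -0.22 in Y397D-T3 (adjusted p = 0.322), -0.37 in VEH-T10 (-0.65 to -0.09, adjusted p = 0.183) and -0.31 in Y397F-T10 (adjusted p = 0.249). Without replicate 1 of every condition Cnih3 was lower by the test in VEH-T10 (-0.47, adjusted p = 0.0403) and VEH-T3 (-0.41, adjusted p = 0.0399).

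Gsg1l (chromosome 7: 125878420–126082411, minus strand) ran from 6.76 through 8.61 to 9.03 FPKM in VEH-HC. Among mice trained for 3 min it spanned 3.28 to 10.6 (median 6.86) with vehicle and 4.0 to 11.8 (median 6.55) with Y397D. Among those trained for 10 min it spanned 4.07 to 7.55 (median 5.81) with vehicle and 4.49 to 9.89 (median 6.53) with Y397F. In VEH-T10 5 of 6 mice lay below every VEH-HC mouse, with a difference of -0.43 (95% confidence interval -0.82 to -0.03, adjusted p = 0.294). The other conditions differed by -0.22 to -0.27 (adjusted p from 0.498 to 0.509) and overlapped with VEH-HC. Without VEH-T3 mouse 5 the VEH-T3 difference was -0.08, and without Y397D-T3 mouse 2 that of Y397D-T3 was -0.09.

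The next question was whether the CREST point mutants moved these genes beyond the vehicle mice with the same training. In Y397F-T10 against VEH-T10, limma called 0 of the 10 genes, with 0 at an unadjusted p under 0.05 (3.78% of all genes), and 0 of all genes tested (0%). Differences lay between -0.12 for Cacng3 and 0.15 for Gsg1l, and the intervals of Gria1 (-0.06 to 0.16), Gria2 (-0.05 to 0.25) and Cacng8 (-0.08 to 0.18) show the sizes still allowed. In Y397D-T3 against VEH-T3, 0 of the 10 genes passed, where 0.00758% of all genes did. All 10 differences were above 0, at a median of 0.0891 against 0.00238 over all genes tested. Such a shift was not particular to these genes. Also above 0 were 20 of 24 further AMPA receptor complex proteins (median 0.0936) and 6 of 6 tested NMDA receptor subunits (0.0868). So were 6 of 6 interneuron markers (0.0939) and 4 of 4 pan-neuronal markers (0.114). Below 0 were 4 of 4 oligodendrocyte markers (median -0.201), 3 of 4 astrocyte and 3 of 4 microglia markers. At an unadjusted p under 0.05 there were 2 of 10 (Cacng8 and Cnih2), both higher, against 7.87% of all genes in either direction and 5.15% higher. Cacng8 was 0.22 higher (1.17-fold, 95% confidence interval 0.10 to 0.35, unadjusted p = 0.00119, adjusted p = 0.504), or 0.11 with the trend on length and GC content removed. All 6 Y397D-T3 mice exceeded the VEH-T3 median of 147.0 FPKM, and 2 exceeded its highest mouse. Cnih2 was 0.21 higher (95% confidence interval 0.02 to 0.39, adjusted p = 0.61), with 6 of 6 mice above the VEH-T3 median, or 0.12 without replicate 1 of every condition. Gria2 differed by 0.06 (95% confidence interval -0.09 to 0.21, adjusted p = 0.85). By the fitted means, the Gria2 difference of 0.29 between Y397D-T3 and VEH-HC is the sum of 0.23 between VEH-T3 and VEH-HC and 0.06 between Y397D-T3 and VEH-T3. For Cacng8 the 0.33 is the sum of 0.11 and 0.22. Each of these 4 steps on its own missed the threshold. The split depended on the setting. With the trend on length and GC content removed, the steps were 0.09 and 0.13 for Gria2 and 0.24 and 0.11 for Cacng8. Of these, the 0.24 between VEH-T3 and VEH-HC passed (adjusted p = 0.0288). The vehicle held no DNA, so the mutated residue and the plasmid itself cannot be told apart.

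Threshold and subthreshold training were compared in vehicle mice. In VEH-T10 against VEH-T3, limma called 0 of 10, with 0 at an unadjusted p under 0.05, where 0.0455% and 8.15% of all genes tested passed these limits. The differences ran from -0.18 for Gsg1l to 0.11 for Cnih2, and that of Gria1 was 0.01 (95% confidence interval -0.10 to 0.11). For Gria2 and Cacng8 all 6 VEH-T10 mice lay below the VEH-T3 median, with differences of -0.11 (95% confidence interval -0.26 to 0.04) and -0.08 (95% confidence interval -0.20 to 0.05).

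In the subunit pool, Gria1 held a median of 55.6% of the summed FPKM of the 4 subunits over all mice (50.5% to 58.4%), Gria2 30.1% (26.8% to 33.5%), Gria3 11.1% (10.1% to 12.6%) and Gria4 3.34% (2.66% to 5.0%). The median share of Gria2 was 28.5% in VEH-HC and 30.1% to 31.9% in the trained conditions. That of Gria4 was 4.35% in VEH-HC and 2.85% to 3.35% in the trained conditions. The ratio of Gria2 to Gria1 had a median of 0.51 in VEH-HC, 0.588 in VEH-T3, 0.557 in Y397D-T3 and 0.538 in both 10 min conditions, and its ranges overlapped. The summed subunit FPKM, mostly Gria1 and Gria2, ran from 279.5 to 315.4 in VEH-HC and from 323.0 to 352.3 in Y397D-T3, without overlap. The summed FPKM of the 6 auxiliary genes ran from 675.9 to 836.5 in VEH-HC and from 794.6 to 921.3 in Y397D-T3, with overlap. Shares and sums are descriptions of RNA and were not tested.

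Among the auxiliary proteins Cnih2 held a median of 71.7% of the summed FPKM and Cacng8 19.0%, with 3.63% for Cacng3, 3.03% for Cnih3, 1.61% for Cacng2 and 0.877% for Gsg1l. The median share of Cnih3 was 4.11% in VEH-HC and 2.79% to 3.10% in the trained conditions, and that of Cacng3 was 4.53% in VEH-HC and 3.32% to 3.82%. Cacng8 FPKM divided by the summed subunit FPKM had a median of 0.443 in VEH-HC (0.407 to 0.501) and 0.492 in Y397D-T3 (0.474 to 0.528). These ranges overlapped.

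**Figure D3:**
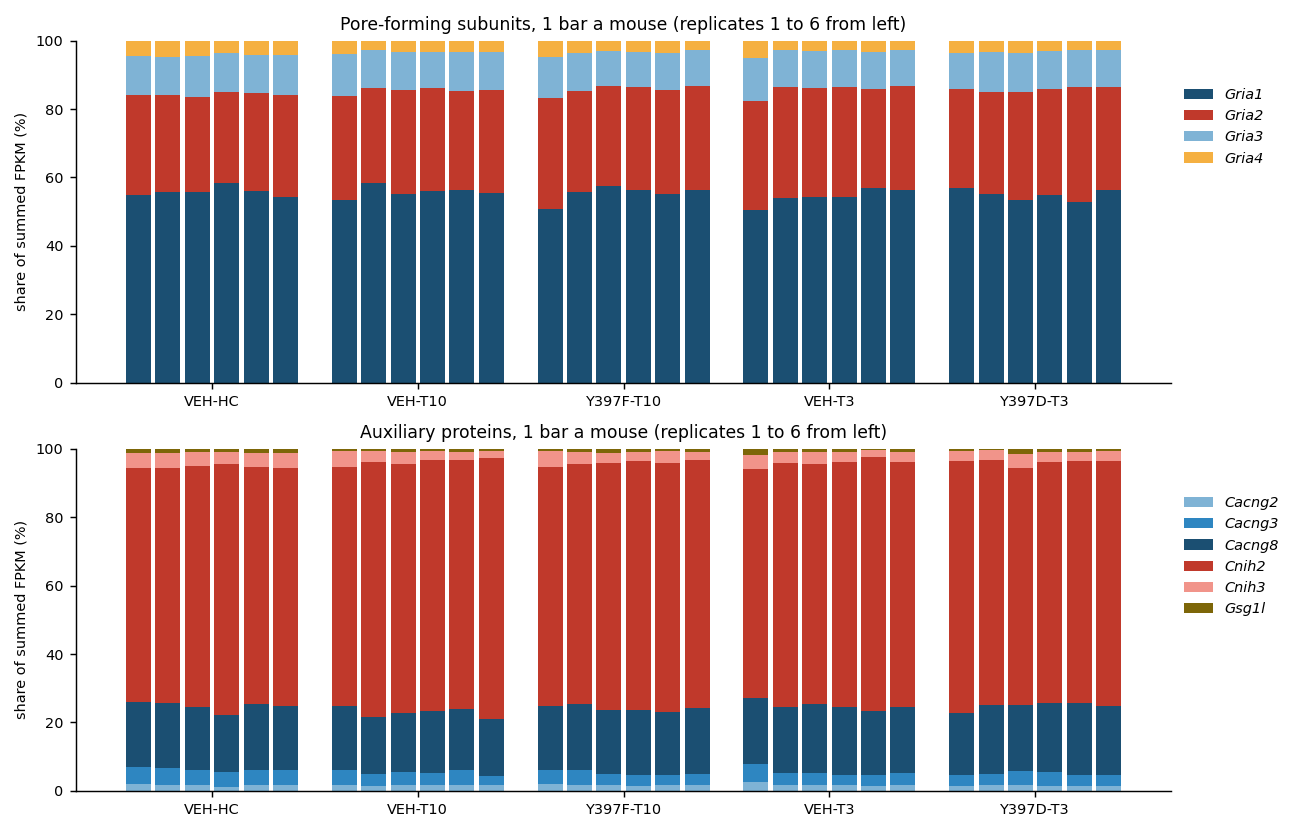
Share of each subunit in the summed FPKM of Gria1 to Gria4 (top) and of each auxiliary gene in the summed FPKM of the 6 auxiliary genes (bottom), in percent, 1 bar for each mouse. Gria1 and Gria2 made up most of the subunit RNA in every mouse (medians 55.6% and 30.1%), and Cnih2 most of the auxiliary RNA (71.7%).

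Across the 30 mice some of these genes varied together. In log2(FPKM + 1) the highest correlations were those of Cacng8 with Cnih2 (Pearson r = 0.781), of Gria2 with Gria3 (0.757) and of Gria1 with Gria2 (0.686). The lowest was that of Gria4 with Cnih2 (-0.517). The points are libraries of 5 conditions that also share differences in dissected tissue and library composition, so these are descriptions. The genes most like each member by the same measure were Nckap1 (0.851) for Gria1, Ralgapa1 (0.894) for Gria2, Scn2a1 (0.877) for Gria3, Prepl (0.924) for Gria4, Prkcb (0.765) for Cacng2, Ngef (0.791) for Cacng3, Rbfox3 (0.866) for Cacng8, Hpca (0.913) for Cnih2, Pak6 (0.897) for Cnih3 and Prkar2b (0.803) for Gsg1l. Next in line were Slitrk5 and Fam49a for Gria1, Myo9a and D130043K22Rik for Gria2, Reps2 and Chrna7 for Gria3, and Arnt2 and Gnai1 for Gria4 (r from 0.817 to 0.914). For Cacng2 they were Adarb1, the editing enzyme of the Q/R site, at 0.759 and Kcna2 at 0.756. They were Evl and Bex1 for Cacng3, Agfg2 and 2700081O15Rik for Cacng8, Cck and Npdc1 for Cnih2, Mgat5b and Negr1 for Cnih3, and Hlf and Nrep for Gsg1l (r from 0.782 to 0.912).

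Of 24 further proteins of the AMPA receptor complex and its assembly, all tested, 4 rose in Y397D-T3 (16.7%, against 3.91% of all genes tested that rose), 2 in Y397F-T10 (8.33%, against 0.47%), 1 in VEH-T3 (4.17%, against 2.23%) and 1 in VEH-T10 (4.17%, against 0.319%), all relative to VEH-HC, and 0 fell. This list was chosen with earlier results of these data known, so these shares are descriptions and not a test of the list. Without replicate 1 of every condition the list gave 4 calls in VEH-T10 and 3 in VEH-T3, in either direction. With only the 12 libraries compared it gave 7 in Y397D-T3, 3 in VEH-T10 and 0 in VEH-T3 and Y397F-T10, and with centred libraries 0 in Y397F-T10. The median difference of the list was 0.0623 in Y397D-T3, -0.0618 in VEH-T3, -0.00311 in VEH-T10 and -0.0471 in Y397F-T10. Frrs1l, which is needed to assemble receptors in the endoplasmic reticulum, ran from 30.6 through 44.6 to 47.9 FPKM in VEH-HC and from 52.5 through 56.2 to 61.9 in Y397D-T3. These mice did not overlap, as for 2.5% of all genes tested, and the rise was 0.43 (adjusted p = 0.00228). VEH-HC mouse 4, at 30.6 FPKM, widened the difference, which was 0.34 without it. Frrs1l was also 0.35 higher in VEH-T3 (adjusted p = 0.0168, a call lost with only the 12 libraries compared) and 0.32 higher in Y397F-T10 (adjusted p = 0.0419), the latter lost without any 1 of 7 mice, VEH-HC mice 2, 4 and 5 and Y397F-T10 mice 3 to 6 (highest adjusted p 0.127, without Y397F-T10 mouse 6).

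Nptx1, a secreted pentraxin that gathers AMPA receptors at synapses, ran from 123.2 through 131.3 to 137.0 FPKM in VEH-HC and from 142.2 through 168.2 to 175.8 in Y397D-T3, again without overlap. It rose by 0.33 in Y397D-T3 (adjusted p = 0.00442), by 0.31 in VEH-T10 (adjusted p = 0.0263) and by 0.28 in Y397F-T10 (adjusted p = 0.0364), and all 6 mice of VEH-T10 and of Y397F-T10 also lay above VEH-HC, as for 0.789% and 0.554% of all genes. The call was lost without any 1 of 4 mice in VEH-T10 (highest adjusted p 0.0868, without VEH-T10 mouse 6) and of 8 in Y397F-T10 (highest adjusted p 0.105, without Y397F-T10 mouse 3). Shisa6, an auxiliary protein that keeps receptors from desensitising, rose by 0.28 in Y397D-T3 (adjusted p = 0.0339), a call held in 6 of 12 fits with a mouse left out (highest adjusted p 0.103, without Y397D-T3 mouse 2). Abhd6, a hydrolase that limits receptor delivery to the surface, rose by 0.19 (adjusted p = 0.0301), held in 8 of 12 such fits (highest adjusted p 0.0793, without VEH-HC mouse 5) and lost without replicate 1 of every condition (adjusted p = 0.0557). Adarb1 itself ran from 24.1 through 27.2 to 28.6 FPKM in VEH-HC and 27.5 through 29.1 to 31.4 in Y397D-T3, a difference of 0.13 (95% confidence interval 0.03 to 0.23, adjusted p = 0.0913).

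The 20 scaffold and trafficking proteins, which include the PSD-95 family (Dlg1 to Dlg4), Grip1, Pick1 and Nsf, showed 1 rise in Y397D-T3 (5.0%, near the 3.91% of all genes that rose) and 0 calls in the other 6 comparisons, where limma gave 0 to 2 at an unadjusted p under 0.05, against 3.78% to 21.6% of all genes. The 1 was Arc, an activity-induced gene whose protein promotes receptor endocytosis. Arc ran from 29.96 through 37.6 to 44.3 FPKM in VEH-HC and from 33.5 through 54.8 to 75.5 in Y397D-T3, with overlap, a difference of 0.49 (adjusted p = 0.0397). It did not pass without replicate 1 of every condition (0.33, adjusted p = 0.104), and it was lost when any 1 of 8 mice was left out (highest adjusted p 0.0895, without Y397D-T3 mouse 6). Dlg4, which encodes PSD-95, ranged from 253.2 to 290.3 FPKM in VEH-HC and from 264.4 to 282.3 in Y397D-T3.

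Among the other ionotropic glutamate receptors Grin2a rose and Grik1 fell. Of the NMDA receptor subunits 6 of 7 were tested (Grin3b averaged 0.184 FPKM), and Grin2a, the subunit that shortens NMDA currents as synapses mature, rose by 0.84 in Y397D-T3 (adjusted p = 0.00577), 0.80 in VEH-T3 (adjusted p = 0.015) and 0.76 in Y397F-T10 (adjusted p = 0.0364). Of all genes tested, 3.91%, 2.23% and 0.47% were called higher in these 3 conditions. Grin2a ran from 3.45 through 8.70 to 11.03 FPKM in VEH-HC and from 11.3 through 14.6 to 19.9 in Y397D-T3, without overlap, as for 2.5% of all genes tested. VEH-HC mouse 4 was again the lowest, and without it the 3 differences were 0.65, 0.60 and 0.56. With only the 12 libraries compared the VEH-T3 and Y397F-T10 calls were lost. In Y397F-T10 the call was lost without any 1 of 7 mice (highest adjusted p 0.114, without Y397F-T10 mouse 6). Of 7 kainate and delta receptor subunits, Grik1, which is carried largely by interneurons, was lower in VEH-T3, with a difference of -0.53 (adjusted p = 0.0415, where 2.94% of all genes were lower), a call that held in 1 of 12 fits with a mouse left out and was -0.67 (adjusted p = 9.72e-05) without replicate 1 of every condition. In the plasmid comparisons and in VEH-T10 against VEH-T3, 0 genes of these 4 lists were called.

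**Figure D4:**
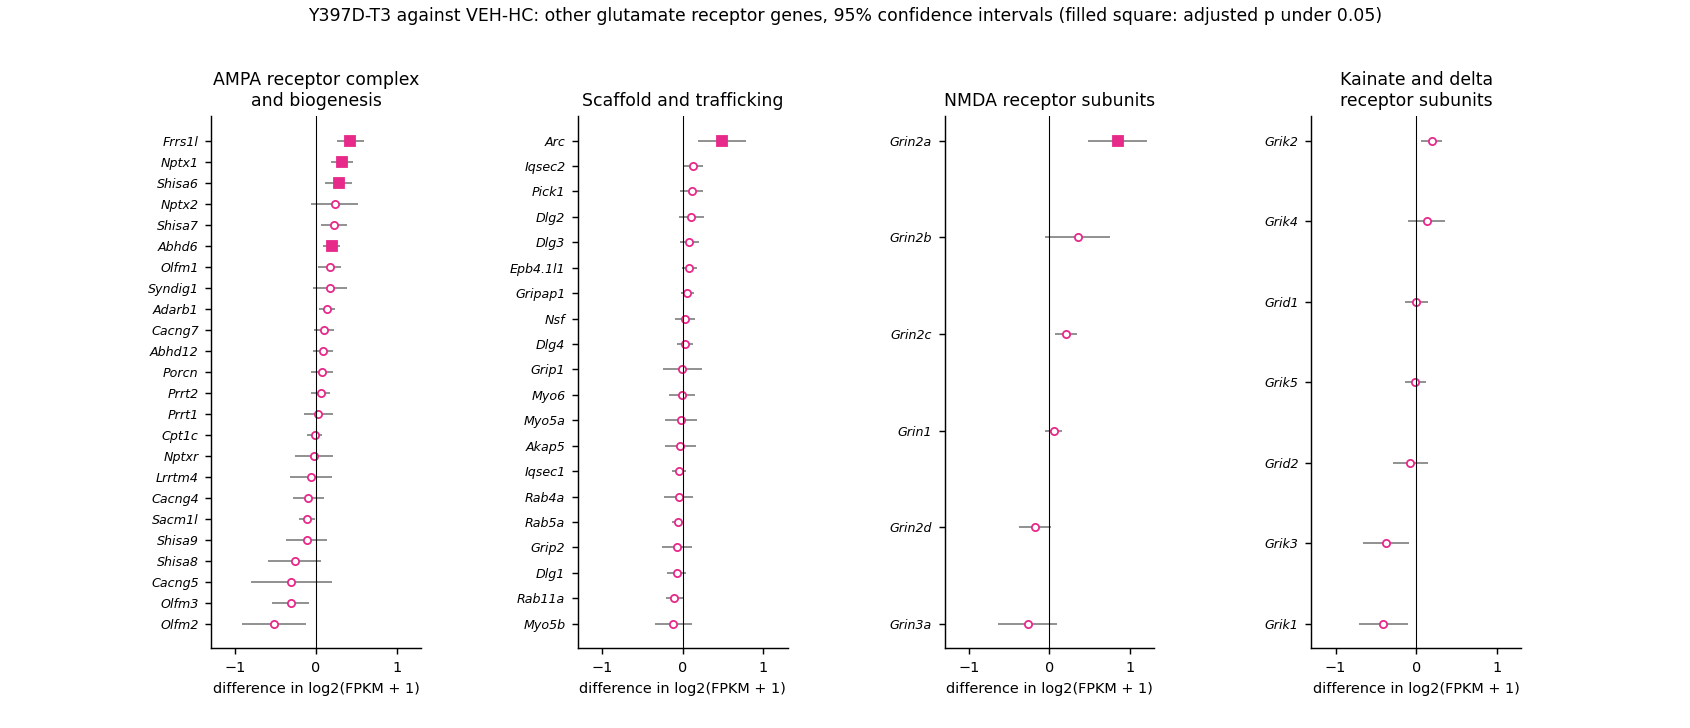
Difference in log2(FPKM + 1) between Y397D-T3 and VEH-HC, with 95% confidence intervals, for the tested genes of 4 lists. Filled squares mark an adjusted p under 0.05: Frrs1l, Nptx1, Shisa6 and Abhd6 among the complex and assembly proteins, Arc among scaffold and trafficking proteins, and Grin2a among NMDA receptor subunits.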

How the data were processed

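The authors aligned paired-end reads to mm10 with TopHat2 2.1.1 and computed FPKM with Cufflinks 2.2.1, per the labels, and the table of 24883 rows was used as the authors deposited it, with all 30 value columns. Per-gene FPKM depends on the mapped fragments of a library and on the transcript length used. Libraries ran on 2 kinds of Illumina instrument that no source assigns to samples, so no sequencing batch could be modelled. Columns were matched to mice by their labels, and 0 pairs of libraries were identical.

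Absolute depth is unknown. Depth relative to the median library, from the steps of single fragments in 2642 rows averaging 0.005 to 0.1 FPKM, ranged from 0.812 to 1.24. Precision is the spread over 6 mice.

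Rows averaging 1 FPKM or more over the 30 libraries (13184) were fitted with limma 3.58.1 (R 4.3.3) as log2(FPKM + 1), which understates changes of low genes, with 1 coefficient per condition, all 30 libraries and a variance trend. Adjusted p values are Benjamini-Hochberg over all tested rows of a comparison, with a threshold of 0.05. Tests are two-sided. The fit was tested on simulated data. The study itself used Cyber-T, a Bayesian test.

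The members and gene lists were chosen with earlier results of these data known. Of the lists, up to 4 called genes with the largest differences are named per comparison, and the 3 genes most correlated with each member. Adarb1, Dlg4 and Grin3b lie outside this rule and were named after their values had been seen. Epb41l1 is in the table as Epb4.1l1. Coordinates and sequences are from GENCODE M21 (GRCm38). Alternatives were 0.1 in place of 1 as pseudocount, 18287 rows above 0 in at least 6 libraries in place of the filter, centred libraries, unadjusted p, only the 12 libraries compared, the replicate number as a block, rows of a symbol summed, the trend on transcript length and GC content removed (96.2% of rows), and each library left out. Other steps used Python 3.11.15.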

Additional observations from a re-analysis of the deposited data

Results flagged for a closer look

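Within a condition, 7 of 50 groups of 6 mice had a mouse far from the other 5 (Dixon's test at its 95% critical value), where chance flags about 1 in 20. Gria2 was 117.3 FPKM in Y397D-T3 replicate 5 (others 99.3 to 106.0). Gria3 was 40.6 in VEH-T10 replicate 1 (33.1 to 35.3) and 40.8 in Y397D-T3 replicate 2 (36.3 to 37.9). Gria4 was 13.4 in VEH-T10 replicate 1 (8.88 to 10.4) and 16.2 in VEH-T3 replicate 1 (8.22 to 10.0). Cacng3 was 22.1 in VEH-T10 replicate 6 (28.4 to 32.1). Cnih3 was 32.4 in Y397D-T3 replicate 3 (22.7 to 24.9). The replicate 1 values come from libraries described above as standing apart. Their pan-neuronal markers were high and their astrocyte, oligodendrocyte, microglia and endothelial markers low. The part of these markers in the values was not tested.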

How the results depend on the processing

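The rises of Gria2 and Cacng8 in Y397D-T3 against VEH-HC passed in all 8 other settings (0.22 to 0.33 and 0.33 to 0.37) and without any 1 of the 12 mice. Of 630 values of single genes under other settings 593 kept their direction and side of the threshold, 29 newly passed and 8 changed sign, and of 840 with 1 library left out 795 kept both, 6 newly passed and 39 changed sign. With unadjusted p under 0.05, 4 of the 10 genes passed in each comparison with VEH-HC and 2 in Y397D-T3 against VEH-T3. Without replicate 1 of every condition, chosen after the data had been seen, 2 passed in VEH-T10 (main count 0) and 4 in VEH-T3 (main count 0, range 0 to 2 with 1 library left out), while calls over all genes went from 108 to 579 and from 681 to 1531. In VEH-T3 the replicate block gave 1 (Gria4, -0.30, adjusted p = 0.0473) and removal of the length and GC trend 1 (Cacng8). With only the 12 libraries compared, 1 passed in Y397F-T10 (Cacng3) and 4 in Y397D-T3 (Gria1 and Cnih2 added). The causes were not tested.

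The replicate numbers belong to different mice and were not treated as pairs in the main fit. Deviations of same-numbered libraries of different conditions correlated at r = -0.496 to 0.84 (median 0.0416), and 24 of 60 pairs exceeded 0.1. Libraries of different number and condition gave -0.625 to 0.743 (median 0.00649), with 117 of 300 pairs above 0.1. Among the replicate 1 libraries 7 of 10 pairs exceeded 0.1 (median 0.151). Of 30 libraries, 8 correlated best with their own number. The block changed no other call of the 10 genes.

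Signs changed only for differences that passed in no setting. Without replicate 1 of every condition Gria3 was -0.00625 in VEH-T10 and -0.0102 in Y397F-T10 against VEH-HC and -0.00391 in Y397F-T10 against VEH-T10, and Gria1 was -0.0222 in VEH-T10 against VEH-T3. Without the length and GC trend Gria3 was -0.0245 and Cacng2 -0.00114 in Y397F-T10 against VEH-T10, and Gria3 was 0.0254 in VEH-T10 against VEH-T3. With centred libraries Cnih3 was 0.00904 in VEH-T10 against VEH-T3. With 1 library left out, Gria3 ranged from -0.0103 to 0.055 in VEH-T10 and from -0.0142 to 0.0818 in Y397F-T10 against VEH-HC. In Y397F-T10 against VEH-T10, Gria3 ranged from -0.0438 to 0.0521, Cacng2 from -0.00703 to 0.048 and Cnih3 from -0.0232 to 0.164. In Y397D-T3 against VEH-T3, Cacng2 ranged from -0.0138 to 0.0735 and Gsg1l from -0.136 to 0.163. In VEH-T10 against VEH-T3, Gria1 ranged from -0.0203 to 0.042, Gria3 from -0.0602 to 0.0156, Gria4 from -0.0373 to 0.154, Cacng2 from -0.0711 to 0.015 and Cnih3 from -0.104 to 0.0826.

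Over all genes, centring the libraries raised the share of calls that were higher from 55.3% to 73.6% in Y397D-T3, 43.2% to 70.1% in VEH-T3, 41.6% to 71.4% in Y397F-T10 and 38.9% to 71.7% in VEH-T10, all against VEH-HC. Removing the length and GC trend gave 79.7%, 82.8%, 86.5% and 76.6%, with 215 calls in VEH-T3 and 74 in Y397F-T10. With only the 12 libraries compared the calls went from 932 to 1845 in Y397D-T3, 681 to 0 in VEH-T3, 149 to 43 in Y397F-T10 and 108 to 321 in VEH-T10. Without replicate 1 they were 1491 in Y397D-T3 and 785 in Y397F-T10. Centring gave 341, 42 and 46 in the last 3. Depth limits the low genes most, and its absolute value is unknown.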
